A study of Homo sapiens with 4 samples.

Results

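The Polo-like kinases PLK1, PLK2, PLK3 and PLK4 were examined in NGP cells treated with Nutlin-3 or with its solvent. The members were taken by gene symbol, and all 4 had a row among the 25693 human gene rows of the count table. NGP is an established human neuroblastoma line that carries extra copies of MYCN, and Nutlin-3 blocks the binding of MDM2 to p53. All cells had first been synchronised by removal of serum and were then given Nutlin-3 or ethanol for 24 h. RNA was captured on the ddSeq droplet device as 4 libraries, 2 per treatment, with ERCC control RNAs diluted 1000-fold in the one library of a treatment and 10000-fold in the other. The line is a single tumour line, and nothing in the labels ties the libraries to separate cultures.

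Polo-like kinases are serine/threonine kinases with a catalytic domain followed by polo boxes, which dock the enzyme to its targets. PLK1 drives entry into mitosis, centrosome maturation, spindle assembly and cytokinesis, and its transcript is made mainly in G2 and M phase. PLK4 starts the duplication of centrioles. PLK2 and PLK3 were described as serum-inducible and stress-inducible kinases, PLK2 is a known transcriptional target of p53, and in neurons PLK2 acts in the weakening of synapses. Genes of the mitotic programme, PLK1 and PLK4 among them, are known to be repressed when p53 raises p21 and the DREAM repressor complex forms.

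The 4 genes lie on different chromosomes. In GENCODE release 29 on GRCh38, PLK1 (ENSG00000166851) spans chr16:23677656-23690367 on the plus strand, PLK2 (ENSG00000145632) spans chr5:58453982-58460260 on the minus strand, PLK3 (ENSG00000173846) spans chr1:44800225-44805990 on the plus strand and PLK4 (ENSG00000142731) spans chr4:127880861-127899195 on the plus strand. All 4 are annotated as protein coding. ERN2, on the opposite strand, overlaps the last bases of PLK1, and TCTEX1D4 overlaps the last bases of PLK3 in the same way, while the antisense gene AC008870.3 and the small RNA gene RNU6-583P lie inside PLK1 and PLK4. None of these had a row among the human gene rows of the count table. Since the use of strand in the authors' counting is not given, reads of such overlaps cannot be told apart.

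The region before the start of each gene is shown because PLK2 and PLK3 had higher sums in Nutlin-3, described below, and PLK1 and PLK4 did not. RefSeq promoters on GRCh38.p14 were found for all 4 members, and the 250 bases before the start are printed 5′ to 3′ along the gene. Capitals mark matches on either strand to the CHR element (TTTGAA or TTCGAA), the CCAAT box, the E-box (CACGTG), the core of the CRE element (TGACG), the p53 decamer motif or the CArG box. The windows are chr16:23678639-23678888 on the plus strand for PLK1, chr5:58460087-58460336 on the minus strand for PLK2, chr1:44800127-44800376 on the plus strand for PLK3 and chr4:127880643-127880892 on the plus strand for PLK4, whose most upstream start of 3 was used.
PLK1: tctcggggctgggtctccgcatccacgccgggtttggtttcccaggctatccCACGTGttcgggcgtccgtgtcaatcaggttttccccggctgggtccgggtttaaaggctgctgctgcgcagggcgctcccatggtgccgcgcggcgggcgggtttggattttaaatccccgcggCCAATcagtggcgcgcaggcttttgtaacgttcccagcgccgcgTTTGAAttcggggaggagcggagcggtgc
PLK4: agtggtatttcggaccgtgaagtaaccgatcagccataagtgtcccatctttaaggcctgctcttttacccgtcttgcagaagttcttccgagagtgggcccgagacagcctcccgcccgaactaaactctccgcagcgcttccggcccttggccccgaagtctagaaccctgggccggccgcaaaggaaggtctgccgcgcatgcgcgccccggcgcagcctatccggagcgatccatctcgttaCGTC
PLK2: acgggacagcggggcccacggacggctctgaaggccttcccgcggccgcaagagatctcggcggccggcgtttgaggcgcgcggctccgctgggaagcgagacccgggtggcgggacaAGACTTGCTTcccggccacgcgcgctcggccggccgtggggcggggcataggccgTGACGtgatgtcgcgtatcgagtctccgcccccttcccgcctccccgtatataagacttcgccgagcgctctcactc
PLK3: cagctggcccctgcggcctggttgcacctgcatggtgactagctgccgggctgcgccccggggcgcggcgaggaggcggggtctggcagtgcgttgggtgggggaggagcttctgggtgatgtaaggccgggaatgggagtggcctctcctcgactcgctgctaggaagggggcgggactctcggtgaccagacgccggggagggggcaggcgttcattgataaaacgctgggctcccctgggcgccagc
PLK4, 30 bases around the CRE core at the start: tccatctcgttaCGTCAccaccagcctagc
PLK4, 30 bases around the CHR element after the start: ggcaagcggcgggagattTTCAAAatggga

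The CHR element, through which the DREAM complex and its activating counterparts bind cell cycle genes, was matched in PLK1 at 24 to 29 bases before the start and in PLK4 on the minus strand at 38 to 43 bases after the first transcribed base. It was not matched in the windows of PLK2 or PLK3, or in those of the other PLK4 starts. Of all 35116 RefSeq promoters of the same length (250 bases before to 50 after the start), 16.4% held a CHR match. PLK1 also held a CCAAT box (69 to 73 bases before the start, in 34.6% of promoters) and an E-box, the element bound by MYC proteins and their partner MAX (193 to 198 bases before the start, in 7.26% of promoters). PLK2 held a p53 decamer match, AGACTTGCTT, at 123 to 132 bases before the start, a motif found in 6.63% of promoters. The CRE core, found in 24.6% of promoters, was matched in PLK2 and across the most upstream start of PLK4. The most downstream PLK4 start, whose window is not printed, had a CCAAT box at 82 to 86 bases before it. No letters of any of these motifs were matched in the PLK3 window, and the CArG box (in 1.29% of promoters) was matched in none of the printed windows. Sequence farther from the starts was not searched, so a window without a match does not show that the gene lacks the element.

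The table held 250 columns per treatment, named by a string of bases and the word for the treatment, and no name tells the library. Each treatment was therefore 1 pool with no replicate, no test was run, and every interval below is a 95% interval of counting error only. These intervals take counts as independent, although values per column were nearly all 0 or 1. Human counts numbered 1342134 in the ethanol pool and 1301232 in the Nutlin-3 pool. Columns fell into 113 large ones per treatment with totals above 4000 counts and 137 small ones, and the small ones held 151563 and 140860 human counts. Of the 250 names, 219 occurred in both treatments, among them the names of all 113 large columns. A value of exactly 1 made up 92.5% of the human values above 0 in ethanol and 93.0% of those in Nutlin-3, and 761 of the 814 values above 0 of the 4 kinases. All 10 adrenergic neuroblastoma markers examined (HAND2 and DBH among them) were present, with 104 to 1140 counts per pool. Their sum was 2397 CPM (the count scaled to library size) in ethanol and 2423 CPM in Nutlin-3, against 150 and 148 CPM for the 6 of 7 mesenchymal markers found in the table. Of 5 blood cell markers 1 was in the table, LYZ, with 24 counts in the ethanol pool and 49 in the Nutlin-3 pool, and of 3 endothelial markers 1 was, VWF, with 1 and 2. The part of these in the results below was not tested. In summed counts, fewer cells with a transcript and less of it per cell cannot be told apart.

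PLK2 and PLK3 were the members with higher levels in Nutlin-3, by 1.98-fold and 2.35-fold, while PLK1 and PLK4 had fewer counts there, by amounts whose intervals reached 0. PLK2 had 63 counts in the ethanol pool (48.4 to 80.6) and 121 in the Nutlin-3 pool (100 to 145), or 46.9 and 93.0 CPM. On the log2 scale PLK2 was 0.98 higher in Nutlin-3 (0.54 to 1.45). For PLK3 the ethanol pool gave 44 counts (32.0 to 59.1) and the Nutlin-3 pool 101 (82.3 to 123), or 32.8 and 77.7 CPM, which put it 1.24 higher on the log2 scale (0.72 to 1.79). Both fold intervals lay above 0, as did those of 4.55% of the genes that passed the low-count filter. For PLK1 the pools gave 153 counts (130 to 179, ethanol) and 136 (114 to 161, Nutlin-3), or 114 and 105 CPM, and its log2 fold change of -0.12 (-0.47 to 0.22) included 0. For PLK4 they gave 144 (121 to 170) and 108 (88.6 to 130), or 107 and 83.0 CPM. Its log2 fold change of -0.37 had an interval that just reached 0 (-0.74 to 0.00099). With ERCC counts as the library size, which shifted the median of all genes to -0.47, PLK1 stood at -0.59, PLK2 at 0.51, PLK3 at 0.77 and PLK4 at -0.84.

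**Figure D1:**
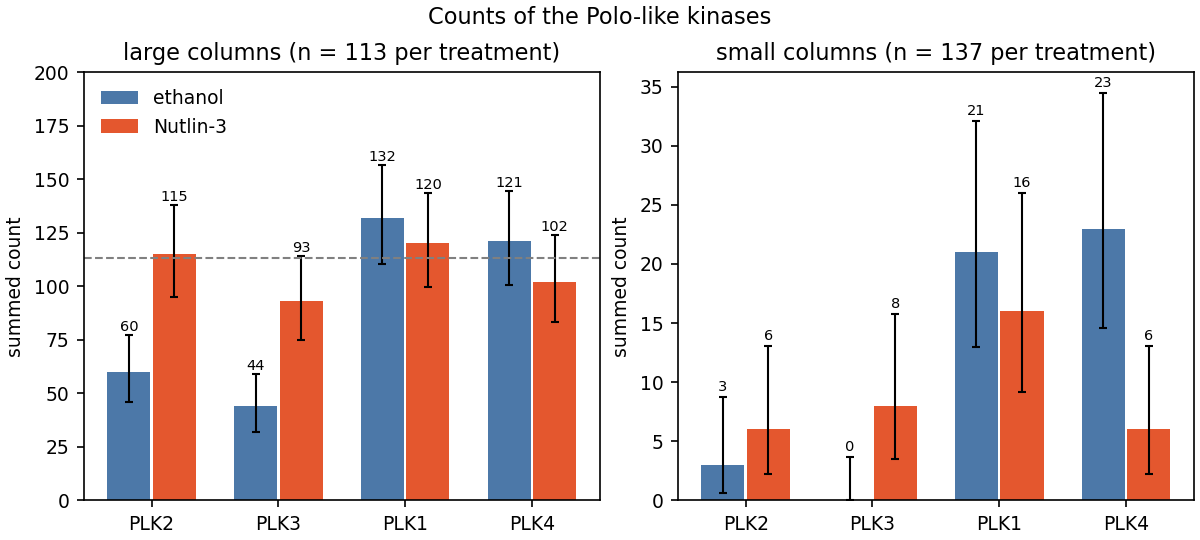
Summed counts (y axis) of each Polo-like kinase in the large columns (left, 113 per treatment) and the small columns (right, 137 per treatment), ethanol in blue and Nutlin-3 in red, with 95% Poisson intervals and the count above each bar. The dashed line marks 113, the sum of a gene with 1 count in every large column, which PLK1 passed in both treatments (132 and 120), PLK2 in Nutlin-3 (115) and PLK4 in ethanol (121).

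Over the 14830 genes that passed the low-count filter, 9.47% had a log2 fold change of at least 0.5 and 7.5% one of -0.5 or less. The counting interval lay above 0 for 4.55% of genes and below 0 for 3.57%. All 4 kinases passed the filter. PLK2 and PLK3 met both rules for higher genes, and 0 of the 4 met a rule for lower genes. Because many of those genes had few counts, each kinase was also placed among genes with a mean CPM within 1.5 times of its own. Of the 6995 genes at the level of PLK2, 17 had a fold change as high, and of the 4908 at the level of PLK3, 16 did. A like mean CPM does not match genes for the number of columns that held them, and genes seen in nearly all large columns varied less. In the large columns, 2.66% of the 2777 genes seen in 60 to 90 of them had a log2 fold change of at least 0.5. Of the 4859 seen in 100 or more, 0.082% did. PLK4 lay towards the other end, with 111 of 7012 genes as low (1.58%). PLK1 lay nearer the middle, with 1121 of 6130 genes as low (18.3%).

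The rule of the comparison set PLK2 plus PLK3 against PLK1 plus PLK4, and a ratio of these within a pool does not depend on how the pools are scaled. PLK2 and PLK3 together had 107 counts in ethanol against 222 in Nutlin-3, a log2 fold change of 1.10 (0.76 to 1.45). PLK1 and PLK4 together had 297 and 244 counts, a log2 fold change of -0.24 (-0.49 to 0.012). There were 0.36 counts of the former pair per count of the latter in ethanol and 0.91 in Nutlin-3. On the log2 scale this ratio was 1.34 higher in Nutlin-3 (0.91 to 1.77). Of the 404 family counts with ethanol, 26.5% came from PLK2 and PLK3 (22.2 to 31.1), and of the 466 with Nutlin-3, 47.6% did (43.0 to 52.3). These exact binomial intervals were apart.

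Within the family, the share of PLK3 went from 10.9% (8.03 to 14.3) with ethanol to 21.7% (18.02 to 25.7) with Nutlin-3, and that of PLK2 from 15.6% (12.2 to 19.5) to 26.0% (22.04 to 30.2). The share of PLK4 was 35.6% (31.0 to 40.5) and then 23.2% (19.4 to 27.3). For these 3 genes the intervals of the treatments did not overlap. The share of PLK1 was 37.9% (33.1 to 42.8) and then 29.2% (25.1 to 33.5), with intervals that overlapped slightly. A share falls when another member's count is higher, so it is a statement on composition and not on the level of a gene. The kit reads transcript ends, and no level is compared here between genes.

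Counts per column showed where these differences lay. Whether a column is a cell or a pool of cells could not be settled from the table, so presence in a column is not presence in a cell. In the large columns PLK2 was absent from 53 of 113 in ethanol and had 1 count in each of the other 60. In Nutlin-3 it was absent from 4, had 1 count in 104, 2 in 4 and 3 in 1. PLK3 was absent from 69 large columns in ethanol with 1 count in the other 44, and in Nutlin-3 it was absent from 25, with 1 count in 83 and 2 in 5. PLK2 and PLK3 were thus present in far more of the large columns in Nutlin-3 (96.5% and 77.9%) than in ethanol (53.1% and 38.9%), and in ethanol neither gene had more than 1 count in any column. PLK4 went the other way: it was present in all 113 large columns in ethanol, with 1 count in 105 and 2 in 8, and in Nutlin-3 it was absent from 15. PLK1 was absent from 2 large columns in ethanol and from 4 in Nutlin-3, and 17 ethanol columns had 2 counts and 2 had 3, against 11 and 0 with Nutlin-3.

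**Figure D2:**
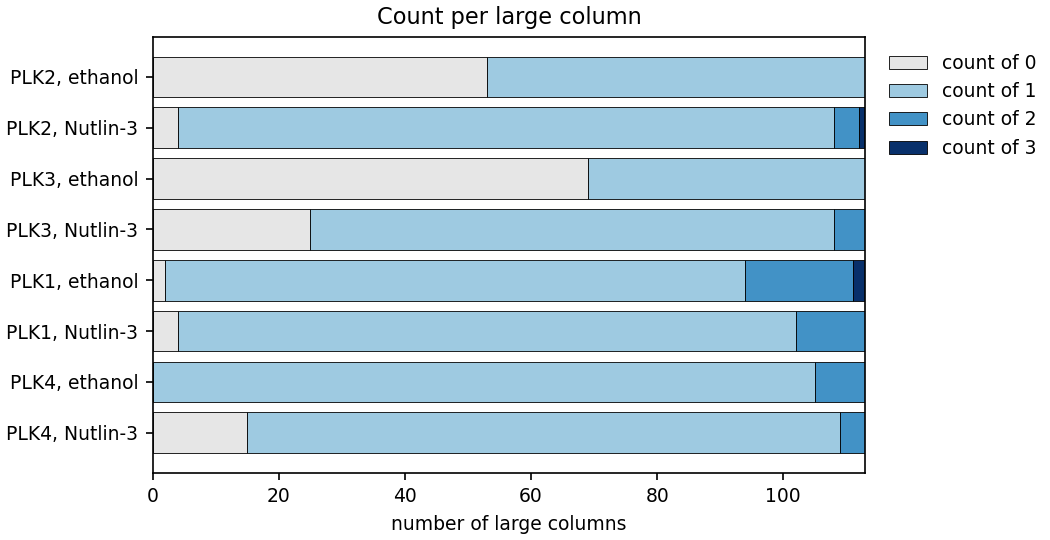
Number of large columns (x axis, 113 per bar) in which each Polo-like kinase had a count of 0, 1, 2 or 3, by gene and treatment. The grey part, columns without the gene, shrank from 53 to 4 for PLK2 and from 69 to 25 for PLK3 between ethanol and Nutlin-3, and grew from 0 to 15 for PLK4.

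Nearly every value was 0 or 1, so the sum of a kinase in the large columns followed the number of columns that held it. Genes seen in nearly all large columns had a narrower range of folds than genes seen in fewer. Among the 4859 genes seen on average in at least 100 of the 113 large columns, as PLK1 (110 columns) and PLK4 (105.5) were, the central 95% of log2 fold changes in the large columns ran from -0.21 to 0.20. Among the 2777 genes seen in 60 to 90 columns, the range of PLK2 (84.5) and PLK3 (66), it ran from -0.50 to 0.52. Against these ranges, PLK2 at 0.97 and PLK3 at 1.11 in the large columns lay above, PLK1 at -0.10 lay inside, and PLK4 at -0.21 lay at the lower edge. The column numbers of PLK2 and PLK3 given here are means of the treatments. In Nutlin-3 alone PLK2 was seen in 109 of the 113 large columns, as many as PLK1, and 104 held exactly 1 count of PLK2. PLK3 was seen in 88 in Nutlin-3. How far the ceiling of 1 count per column narrowed the folds of PLK1, PLK2, PLK3 and PLK4 was not tested.

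Large columns of the same name could be set side by side, although a shared name does not make them the same cells. Of the 113 names, PLK2 had the higher count in the Nutlin-3 column for 54, the same count for 56 and a lower one for 3. For PLK3 these numbers were 57, 45 and 11. PLK4 was higher in Nutlin-3 for 2 names, equal for 91 and lower for 20, and PLK1 was higher for 11, equal for 81 and lower for 21. The number of large columns that held all 4 kinases was 24 with ethanol and 73 with Nutlin-3. PLK2 and PLK3 were both present in 24 large columns in ethanol and 84 in Nutlin-3, and both absent from 33 in ethanol and 0 in Nutlin-3.

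In the large columns taken alone, PLK2 had 60 counts in ethanol against 115 in Nutlin-3, a log2 fold change of 0.97 (0.52 to 1.45), and PLK3 had 44 and 93, a log2 fold change of 1.11 (0.59 to 1.67). Both again met the rules for higher genes, which 9.17% (fold) and 3.94% (interval) of the 14759 filtered genes met. PLK1 had 132 and 120 counts, with -0.10 (-0.47 to 0.27). PLK4 had 121 and 102, with -0.21 (-0.60 to 0.19). Neither met a rule for lower genes, which 7.15% and 2.95% of genes met.

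The small columns held few counts of the family, 47 with ethanol and 36 with Nutlin-3. The separation within it was wider there. For PLK4 these were 23 counts with ethanol (14.6 to 34.5) and 6 with Nutlin-3 (2.20 to 13.1), and the log2 fold change was -1.72 (-3.39 to -0.47). PLK3 had 0 counts in ethanol against 8 in Nutlin-3 (3.45 to 15.8). Against 3 counts over the group, the limit that 0 allows, and with the 8 counts taken as exact, this was at least 2.93-fold higher in Nutlin-3. With the counting error of both pools, the lower limit was 0.91 on the log2 scale. PLK2 had 3 and 6 counts, too few to tell apart (a log2 fold change of 1.03, -1.09 to 3.76), and PLK1 had 21 and 16 (-0.25, -1.29 to 0.75). PLK1 and PLK4 passed the filter in small columns and PLK2 and PLK3 did not. PLK4 met both rules for lower genes, which 17.7% (fold) and 2.9% (interval) of the 4762 filtered genes met, and neither met a rule for higher genes (18.2% and 3.51%). The ratio of PLK2 plus PLK3 to PLK1 plus PLK4 was 3.22 higher on the log2 scale in Nutlin-3 (1.15 to 5.76) in small columns, from 3 against 44 counts in ethanol and 14 against 22 in Nutlin-3. In large columns it was 1.19 higher (0.75 to 1.63). The difference between the classes was not tested.

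**Figure D3:**
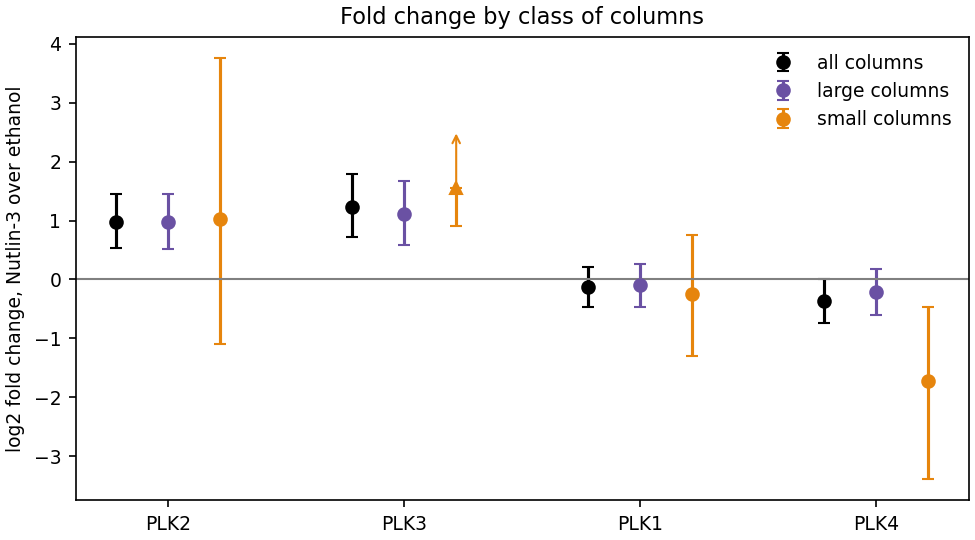
Log2 ratio of the Nutlin-3 to the ethanol level (y axis) of each Polo-like kinase in all columns (black), large columns (purple) and small columns (orange), with 95% counting intervals. The triangle with an upward arrow sets the 8 counts of PLK3 in small columns against 3, the limit that 0 ethanol counts allow, and the bar below it ends at the lower counting limit, 0.91. PLK2 and PLK3 lie above 0 in all and in large columns, and the PLK4 interval lies below 0 in small columns alone.

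Shares of columns were also compared at a common depth, since column totals differed. Thinning to 700 human counts left 194 columns with ethanol and 187 with Nutlin-3, and 56 and 63 held fewer. PLK2 was then seen in 3.09% of ethanol columns (exact binomial interval 1.14 to 6.61) and 7.49% of Nutlin-3 columns (4.15 to 12.2), and PLK3 in 3.61% (1.46 to 7.29) and 5.88% (2.97 to 10.3). PLK1 was seen in 8.25% (4.79 to 13.0) and 3.74% (1.52 to 7.56), and PLK4 in 8.76% (5.19 to 13.7) and 3.74% (1.52 to 7.56). PLK3 was level in the large columns, at 6.19% in each treatment. The intervals overlapped for all 4 genes. They rest on few columns with the gene (for PLK2, 6 in ethanol and 14 in Nutlin-3), and columns are not replicates. Overlap does not show that the shares were equal, so no verdict is drawn at this depth. Without thinning, at medians of 2294 and 2020.5 total counts per column, the shares over 250 columns were 25.2% and 46.0% for PLK2, 17.6% and 38.4% for PLK3, and 54.0% and 41.6% for PLK4, and PLK1 was present in 132 and 125 of them. No cell type that lacks these genes was present, so the share given by free RNA was not measured.

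Other genes around the family were taken from lists, read against the share of all genes given above. Of 32 p53 targets other than the kinases, the table held 31, all past the filter. The median of the list was 0.72 on the log2 scale, against -0.0011 over all filtered genes. In the list, 29 were higher in Nutlin-3 and 2 lower, 18 passed the fold (9.47% of all genes) and 21 had an interval above 0 (4.55%). These counts are a description, since 3 of the genes (TRIM22, FAS and GDF15) had fewer than 10 counts in ethanol and passed the filter through Nutlin-3. The 25 that averaged 50 CPM or more had a median of 0.49, with 12 past the fold and 15 with an interval above 0. All 8844 genes at that level had a median of -0.010, and the central 95% of their fold changes ran from -0.37 to 0.37. The fold of 0.5 thus lay outside that range, and 9.47% and 4.55%, from all filtered genes, are not the background of these 25. The shares of the 8844 genes that met each rule were not counted. PHLDA3, an inhibitor of AKT signalling, had 20 counts in ethanol against 120 in Nutlin-3 (2.60, 1.94 to 3.39). TNFRSF10B, a death receptor, had 23 and 115 (2.34, 1.71 to 3.08), TP53INP1 had 41 and 123 (1.62, 1.11 to 2.18) and FDXR, a mitochondrial reductase, had 41 and 119 (1.57, 1.06 to 2.13). CDKN1A, the gene of p21, had 70 and 188 (1.46, 1.07 to 1.89), and MDM2 had 315 and 504 (0.72, 0.52 to 0.93). The fold changes of PLK2 (0.98) and PLK3 (1.24) lay between those of MDM2 and CDKN1A. How far the ceiling on counts per column, described above, narrowed any of these sizes was not tested.

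The 25 mitotic genes around PLK1 all passed the filter. They had a median of -0.34, with 24 lower and 1 higher in Nutlin-3, 2 past the fold for lower genes and 9 with an interval below 0. Over all filtered genes the median was -0.0011, 7.5% passed that fold and 3.57% had an interval below 0. The listed genes past the fold were CLSPN and INCENP, of the chromosomal passenger complex, which had 64 and 32 counts (-0.94, -1.61 to -0.32). In large columns the median was -0.19 and in small columns, where 21 passed, -0.89. CDK1, the mitotic kinase, had 226 counts in ethanol against 168 in Nutlin-3 (-0.38, -0.68 to -0.09), and its partner CCNB1 had 222 and 165 (-0.38, -0.68 to -0.08). AURKA, which phosphorylates and activates PLK1, had 153 and 132 (-0.17, -0.51 to 0.18), close to PLK1 itself. CLSPN, the checkpoint adaptor that PLK1 marks for destruction, had 110 and 67 (-0.67, -1.13 to -0.22). The checkpoint kinase BUB1B (-0.46, -0.79 to -0.13), the spindle midzone protein PRC1 (-0.44, -0.73 to -0.16) and AURKB (-0.41, -0.74 to -0.09) also had intervals below 0. In the large columns alone, 2 genes, CLSPN and INCENP, kept an interval below 0, which 2.95% of all filtered genes had there. There CDK1 stood at -0.24 (-0.59 to 0.10), CCNB1 at -0.17 (-0.51 to 0.17), BUB1B at -0.25 (-0.61 to 0.11), PRC1 at -0.28 (-0.61 to 0.04) and AURKB at -0.27 (-0.63 to 0.08). FOXM1, a transcription factor of G2/M genes, had 138 and 105 counts (-0.35, -0.73 to 0.03).

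The 16 centriole duplication genes around PLK4 all passed the filter, with a median of -0.24, 11 lower and 5 higher. Of these, 0 passed the fold in either direction. Against 3.57% of all filtered genes, 1 had an interval below 0. That gene was STIL, which binds and activates PLK4, with 127 counts in ethanol against 90 in Nutlin-3 (-0.45, -0.86 to -0.05). SASS6, the cartwheel protein, had 113 and 91 (-0.26, -0.68 to 0.14). The scaffolds that recruit PLK4, CEP152 and CEP192, had -0.26 (-0.64 to 0.10) and -0.29 (-0.70 to 0.10), and CNTROB and CEP135 had -0.38 (-0.81 to 0.05) and -0.29 (-0.70 to 0.12). The value of PLK4, -0.37, lay within the range of this list (-0.45 to 0.12). The 10 pericentriolar genes had a median of -0.057 with 7 lower and 3 higher, and 0 intervals left out 0. The farthest were NEDD1 at -0.39 (-0.84 to 0.05), KIZ, a centrosomal substrate of PLK1, at 0.33 (-0.06 to 0.73), CEP55, of the midbody, at -0.31 (-0.67 to 0.05), and TUBGCP3 at -0.15 (-0.55 to 0.24).

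Partners and substrates of PLK2 and PLK3 had values on both sides of 0. Of 13 listed, 12 passed the filter, with a median of 0.11, 7 higher and 5 lower, 1 past the fold for higher genes and 0 with an interval away from 0. Over all filtered genes, 9.47% passed that fold. SIPA1L1, a synaptic substrate that PLK2 sends to destruction, had 77 counts in ethanol against 81 in Nutlin-3 (0.12, -0.35 to 0.59). CHEK2 at -0.32 (-0.74 to 0.09), HIF1A at -0.16 (-0.47 to 0.15) and VRK1 at -0.15 (-0.50 to 0.20) were the members of the largest size at 50 CPM or more. With ERCC counts as the library size, the medians of this list and of the immediate early list turned negative (-0.36 and -0.37), and with equal weight per column that of this list did (-0.13).

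Immediate early genes were examined because PLK2 and PLK3 respond to serum. Of 14 listed, 11 passed the filter, with a median of 0.10, 9 higher and 2 lower, 2 past the fold for higher genes and 1 with an interval above 0. Over all filtered genes, 9.47% and 4.55% met these rules. The listed gene with an interval above 0 was FOS, with 18 counts in ethanol against 56 in Nutlin-3 (1.66, 0.90 to 2.54). ATF3, named after its value was seen, was the other past the fold (0.83, -0.01 to 1.74). JUNB had 0.30 (-0.10 to 0.71), KLF6 had -0.27 (-0.67 to 0.12), IER2 had 0.10 (-0.26 to 0.46) and MCL1 had 0.05 (-0.26 to 0.36). Of the 11 filtered genes, FOS alone lay above PLK2 and PLK3. The 3 genes under the filter had too few counts to be placed.

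**Figure D4:**
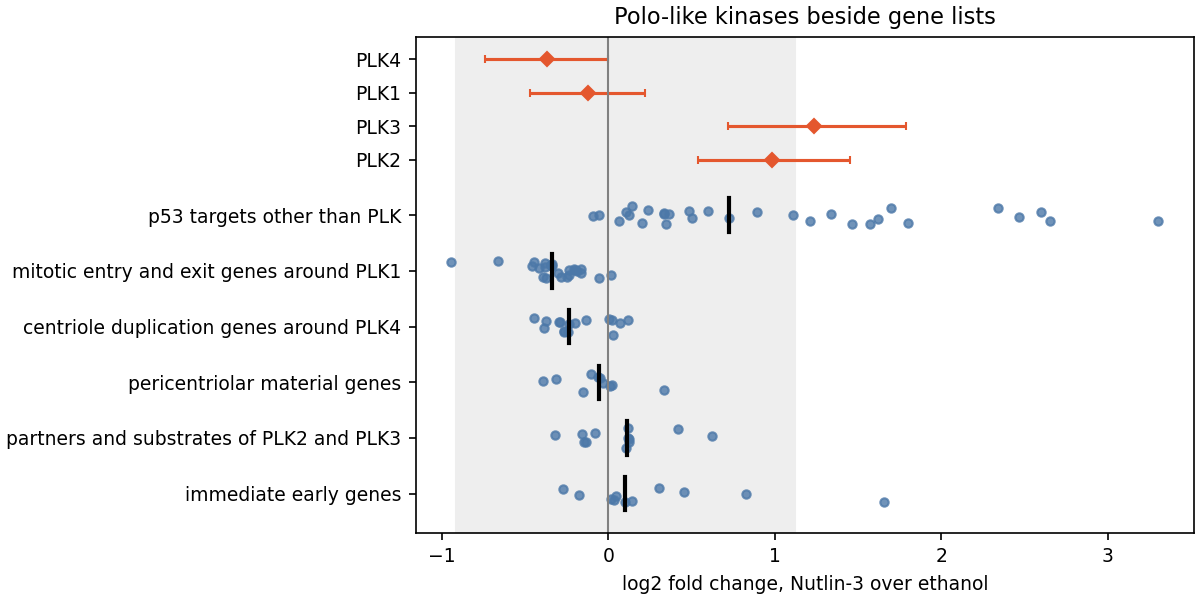
Log2 ratio of the Nutlin-3 to the ethanol level (x axis) of the 4 Polo-like kinases (red diamonds with 95% counting intervals) above the genes of 6 lists (blue points, filtered genes with at least 1 ethanol count; black bars, list medians). The grey band is the central 95% of all 14830 filtered genes, from -0.92 to 1.12. PLK3 lies above it, PLK2 in its upper part and PLK1 and PLK4 below 0. Many of those genes had few counts. For the 8844 genes at 50 CPM or more, as all 4 kinases averaged, the central 95% was -0.37 to 0.37 (not drawn). PLK2 and PLK3 lie above that range, PLK4 at its lower edge and PLK1 inside it.

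Genes with the most similar pattern were sought by the distance between log2 CPM over 4 sums (each treatment in large and in small columns), each centred on its mean, among genes at a like level. CARM1 (distance 0.022), ERO1A (0.029) and HSPA13 (0.031) were nearest to PLK1, and ADAMTS1 (0.045) and ACAT2 (0.076) to PLK4. SORCS2 (0.26), S100A11 (0.32) and C1orf226 (0.33) were nearest to PLK2, and PODXL (0.40), RGS16 (0.46) and TMEM51-AS1 (0.53) to PLK3. PODXL had 35 and 68 counts in large columns and 0 and 8 in small ones, and RGS16 had 38 and 76, and 0 and 10, which are close to the 44 and 93, and 0 and 8, of PLK3. The small-column counts are low, so these orders rest on few reads.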

How the data were processed

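The authors deposited whole-number counts per gene and column for 25693 Ensembl identifiers and 62 ERCC species in 500 columns. Per the labels' protocols, polyadenylated RNA was captured on the ddSeq device and prepared with the SureCell WTA 3' kit. Aligner, genome build, cell filter and the handling of barcodes and molecular tags are each not given in the sources used here. Nor is any removal of doublets, and none was done here, since a column could not be taken as 1 cell. Columns whose names end in the word treated were taken as Nutlin-3, and those ending in untreated as ethanol, the other treatment of the labels; 0 columns were unassigned.

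Counts of human genes were summed per treatment and scaled with TMM factors (edgeR 4.0.16, R 4.3.3), 1.0005 for ethanol and 0.9995 for Nutlin-3. The edgeR filter with a minimum count of 10 kept 14830 genes. Fold changes had 0.5 counts added, and 95% intervals were derived from exact binomial limits on the part of a gene's counts found in Nutlin-3 (scipy 1.17.1, Python 3.11.15). Called genes passed a log2 fold of 0.5 in size, or had an interval without 0. The computation was tested on simulated independent Poisson sums. These lack the limit near 1 count per column seen here, so that run does not bear on it. With 1 pool per treatment no test was possible. The intervals take counts as independent, and the counts per large column did not behave so. PLK4 in ethanol was absent from 0 large columns, with 1 count in 105 and 2 in 8, a narrower spread than independent counts give. How far the intervals misstate the counting spread was not tested.

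Members and gene lists were chosen with earlier results of these data known. From each list, up to 4 genes of the largest change at a mean of 50 CPM or more were named, plus AURKA, CCNB1, CDK1, FOXM1, STIL, SASS6, CEP152, CDKN1A, MDM2, SIPA1L1 and FOS. INCENP, ATF3, TRIM22, FAS and GDF15 were added after their values were seen. PODXL, RGS16 and the other nearest genes came from the distance rule. Some genes that these rules name are not reported here. PLK5 and the proteins were not analysed here.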

Additional observations from a re-analysis of the deposited data

How the results depend on the processing

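No paired analysis was possible because column names tell the treatment and nothing of the library, and leaving out each library was not run for that reason. PLK2 and PLK3 stayed higher and PLK1 and PLK4 lower in Nutlin-3 under all 9 alternatives run for each (other scalings, 1 count added, each class of columns, shared names, columns seen in place of sums, equal weight per column), and 30 of these 36 values stayed within the first counting interval. The 30 include PLK3 in small columns as a lower bound, 1.55, set against 3 counts because ethanol had 0. With 0.5 counts added that value was 4.22, above the first interval. Several alternatives could hardly differ from the first value, so the number that stayed is no measure of robustness. TMM factors were 1.0005 and 0.9995, so total counts gave nearly the same scaling. Shared names kept 400 of the 404 family counts in ethanol and 461 of the 466 in Nutlin-3. Scaling to ERCC counts shifts every gene alike (the median of all genes to -0.47). It gave log2 fold changes of -0.59 for PLK1, 0.51 for PLK2, 0.77 for PLK3 and -0.84 for PLK4, and list medians of 0.25 for p53 targets, -0.81 for mitotic, -0.71 for centriole, -0.53 for pericentriolar, -0.36 for partner and -0.37 for immediate early genes. Each pool joins both spike-in dilutions in unknown proportion. Small columns alone gave -1.72 for PLK4, 3.22 for the log2 ratio of the pairs, 6.38% and 38.9% of family counts from PLK2 plus PLK3 in ethanol and Nutlin-3, and list medians of -0.89 (mitotic), -0.60 (centriole), 0.14 (pericentriolar, a change of sign) and -0.27 (partners, a change of sign). Equal weight per column gave 1.97 for PLK3, -0.90 for PLK4, shares of 18.3% and 42.1%, and list medians of -0.62 (mitotic), -0.36 (centriole), -0.25 (pericentriolar), 0.38 (immediate early) and -0.13 (partners, a change of sign). The mitotic median was -0.19 in large columns and -0.20 with columns seen in place of sums, which gave 0.42 for p53 targets. The cause of these shifts was not tested. TRIM22, with 0 ethanol counts, lies above the p53 target median also at 3 counts. At few counts per column, differences in single columns could not be resolved.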
